A study of Mus musculus with 2 samples.

Results

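DNA methylation was examined at 4 imprinted transcription units that lie inside larger host genes, in the *Rex1*-high and *Rex1*-low states of mouse embryonic stem cells (ESCs). They were *Nap1l5* (nucleosome assembly protein family), *Zrsr1* (a homolog of the splicing factor U2AF), *Mcts2* (a copy of the X-linked translation factor gene *Mcts1*) and the island inside *Inpp5f*, a gene for an inositol phosphatase, from which a short variant transcript starts. A locus was every CpG in a fixed mm9 window, from 58855500 to 58858500 on chromosome 6 for *Nap1l5*, 22871000 to 22875000 on chromosome 11 for *Zrsr1*, 152511500 to 152514000 on chromosome 2 for *Mcts2* and 135831000 to 135833500 on chromosome 7 for *Inpp5f*. With at least 5 methylation calls required in a line, the windows held 139 of 2167487 CpG positions in *Rex1*-high cells and 130 of 1871274 in *Rex1*-low cells, and 125 of the 1707425 positions shared by both. The cells were E14 ESCs of 129/Ola background that carry a GFP knockin at *Rex1*, a marker of naive pluripotency, and they were grown on gelatin with LIF and 10% serum before sorting by GFP. Genomic DNA of each sorted population gave 1 library for reduced representation bisulfite sequencing (RRBS), in which MspI (CCGG) and TaqI (TCGA) cut the DNA, fragments are size-selected and filled in, and bisulfite converts unmethylated cytosines. There is no replicate, so every test here compares these libraries and not the states, and the calls do not tell the maternal from the paternal allele. The libraries held 60718476 (*Rex1*-high) and 61024229 (*Rex1*-low) calls in all.

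Retrogenes are copies of processed mRNAs that were reverse transcribed and inserted elsewhere in the genome. These loci are known as a class of imprinted genes whose CpG island promoter is methylated in the oocyte, stays methylated on the maternal allele in somatic tissue, and is active on the paternal allele. Such a region is expected to give intermediate methylation over all of its CpGs when both alleles are pooled. On the GRCm38.p6 annotation, *Nap1l5* lies within *Herc3*, *Zrsr1* within *Commd1* and *Mcts2* within *H13*, and the *Inpp5f* island lies within its own gene.

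Sequence was available for stretches of the *Zrsr1* and *Mcts2* windows and is shown because methylation there followed the sequence context of the CpG. The RefSeq promoter windows (GRCm38.p6, 250 bases before to 50 after the start) were matched to the measured mm9 positions by the spacing of their CpGs. For *Zrsr1* all 9 measured positions within the stretch were CpGs of the sequence, for an internal *Commd1* start inside the *Zrsr1* window all 16 were, and for *Mcts2* all 17 were. Capitals mark CCGG and TCGA, the sites of the enzymes; each reads the same on both strands, and they cannot overlap. The stretches are *Zrsr1* at chr11:22971755-22972054 (plus strand), the internal *Commd1* start at chr11:22972817-22973116 (minus strand) and *Mcts2* at chr2:152686898-152687197 (plus strand), each written 5′ to 3′ along its gene.
Zrsr1: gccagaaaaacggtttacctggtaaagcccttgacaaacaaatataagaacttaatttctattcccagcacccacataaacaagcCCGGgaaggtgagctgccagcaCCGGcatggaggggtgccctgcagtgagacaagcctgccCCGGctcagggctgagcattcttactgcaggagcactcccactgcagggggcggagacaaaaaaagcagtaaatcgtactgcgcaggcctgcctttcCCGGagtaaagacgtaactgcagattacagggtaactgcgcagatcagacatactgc
Commd1 internal: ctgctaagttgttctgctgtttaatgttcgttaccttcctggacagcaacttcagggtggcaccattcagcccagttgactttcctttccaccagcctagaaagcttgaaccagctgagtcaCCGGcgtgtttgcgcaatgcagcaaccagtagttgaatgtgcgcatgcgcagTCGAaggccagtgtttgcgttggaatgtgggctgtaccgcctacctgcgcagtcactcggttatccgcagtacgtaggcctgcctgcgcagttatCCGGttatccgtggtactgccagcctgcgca
Mcts2: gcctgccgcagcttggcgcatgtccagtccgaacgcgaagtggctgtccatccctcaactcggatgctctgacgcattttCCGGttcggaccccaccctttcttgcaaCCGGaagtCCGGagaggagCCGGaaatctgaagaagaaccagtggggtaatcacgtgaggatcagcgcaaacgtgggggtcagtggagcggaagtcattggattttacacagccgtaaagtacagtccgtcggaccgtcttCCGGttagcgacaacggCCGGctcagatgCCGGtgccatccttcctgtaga
CCGG is present in 52.8% and TCGA in 22.0% of all 32851 RefSeq promoter windows. The *Zrsr1* stretch holds 4 CCGG sites and no TCGA, the internal *Commd1* stretch 2 CCGG sites and 1 TCGA, and the *Mcts2* stretch 7 CCGG sites and no TCGA. No sequence was matched in the *Nap1l5* and *Inpp5f* windows.

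At *Zrsr1*, *Mcts2* and *Inpp5f*, most CpGs were under 10% in both libraries and the others, with higher methylation, lay scattered among them. *Nap1l5* had this pattern in *Rex1*-high cells, but in *Rex1*-low cells 10 of its 16 CpGs were between 10% and 25%. The share of CpGs under 10% in *Rex1*-high cells was 12 of 16 at *Nap1l5*, 48 of 71 at *Zrsr1*, 28 of 39 at *Mcts2* and 9 of 13 at *Inpp5f*. In *Rex1*-low cells it was 2 of 16, 45 of 69, 19 of 31 and 10 of 14. The median CpG in *Rex1*-high cells was at 3.82% at *Nap1l5*, 3.13% at *Zrsr1*, 0% at *Mcts2* and 2.08% at *Inpp5f*, against 46.4% over all measured CpGs. In *Rex1*-low cells the medians were 12.5%, 5.13%, 1.52% and 5.52%, against 67.5% over all CpGs. The label of an imprinted region was therefore not borne out by intermediate methylation across the measured CpGs. In *Rex1*-high cells these spanned 243 of 3000 bp at *Nap1l5*, 2642 of 4000 at *Zrsr1*, 798 of 2500 at *Mcts2* and 298 of 2500 at *Inpp5f*. Outside these spans, no line of the windows reached 5 calls in *Rex1*-high cells. The longest run of neighbouring CpGs between 25% and 75% in both libraries was 2 CpGs at *Zrsr1* and 1 CpG at each of the other loci. *Zrsr1* held 4 such pairs. The CpGs of the first, at 22871863 and 22871902, lie in CCGG sites of the sequence printed above, and the other 3 pairs lie outside the sequenced stretches.

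The CpGs at 25% or more carried most methylated calls. They were 4 of 16 CpGs at *Nap1l5*, 21 of 71 at *Zrsr1*, 9 of 39 at *Mcts2* and 4 of 13 at *Inpp5f* in *Rex1*-high cells, and held 88.7%, 93.4%, 86.9% and 95.6% of the methylated calls of their locus. In *Rex1*-low cells such CpGs held 74.3%, 90.7%, 97.5% and 89.5%, with the lowest share at *Nap1l5*. Means were accordingly well above medians. Over all measured CpGs of a locus, the mean ± SD over CpGs in *Rex1*-high cells was 15.0% ± 22.2 at *Nap1l5*, 16.7% ± 23.4 at *Zrsr1*, 14.7% ± 27.2 at *Mcts2* and 21.0% ± 33.4 at *Inpp5f*. In *Rex1*-low cells it was 24.5% ± 22.7, 21.1% ± 26.6, 19.9% ± 29.1 and 27.1% ± 40.1. The spread over CpGs exceeded the mean in all but *Rex1*-low cells at *Nap1l5*. It measures how unlike the CpGs of a locus were and not the error of a mean, so it does not rank the loci.

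**Figure D1:**
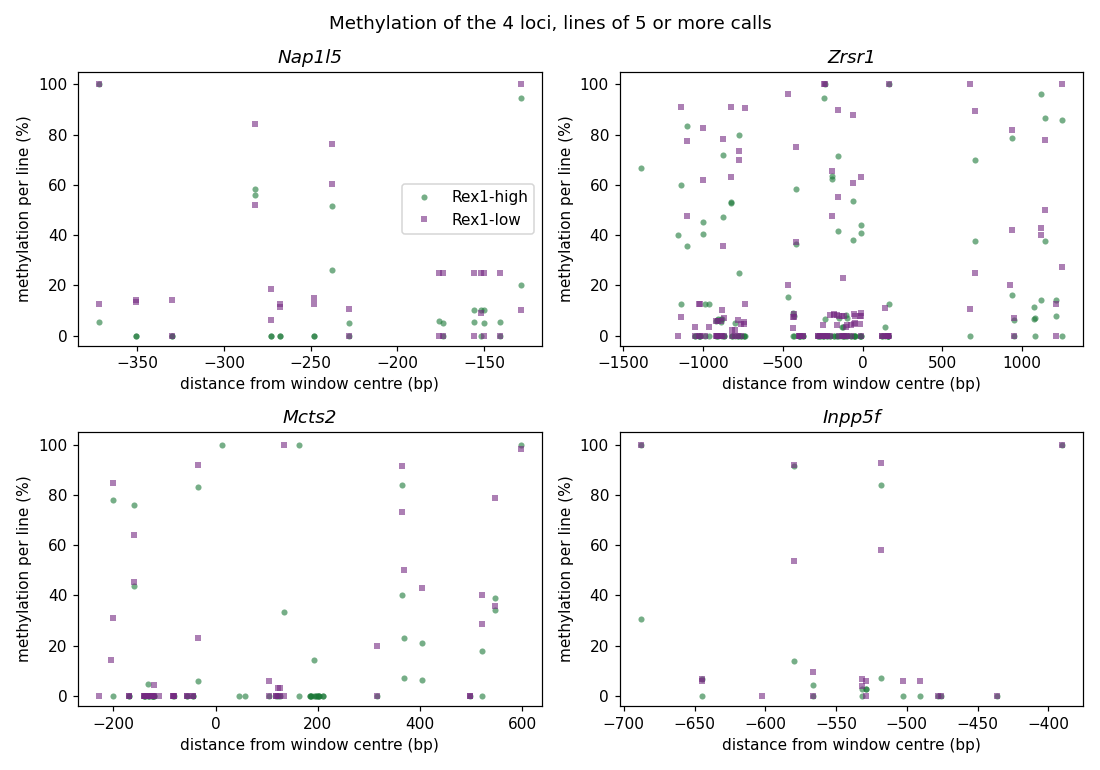
Methylation in percent (vertical axis) of every line with 5 or more calls in the 4 windows, against the distance from the window centre in bp. Circles are the Rex1-high library and squares the Rex1-low library, with up to 2 lines per CpG position. Most lines lie under 10% at Zrsr1, Mcts2 and Inpp5f in both libraries and at Nap1l5 in the Rex1-high library, and higher lines sit at scattered positions between them.

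Where the sequence was known, the CpGs at 25% or more were those of the restriction sites. In *Rex1*-high cells, 11 of 11 measured CpGs in CCGG or TCGA were at 25% or more, and 0 of 28 CpGs outside both sites were. In *Rex1*-low cells these counts were 8 of 9 and 0 of 27. The exception was the *Zrsr1* CCGG at 22871841, at 40% on 5 calls in *Rex1*-high cells and at 0% on 6 calls in *Rex1*-low cells. Over both loci, CpGs in the sites had 213 of 430 calls methylated in *Rex1*-high cells (49.5%, 95% Wilson interval 44.8% to 54.2%) and 313 of 496 in *Rex1*-low cells (63.1%, 58.8% to 67.2%). CpGs outside the sites had 12 of 869 calls methylated (1.38%, 0.792% to 2.40%) and 51 of 1266 (4.03%, 3.08% to 5.26%). These intervals cover counting error only, since neighbouring calls can come from the same read, and p-values over several CpGs treat such calls as independent.

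Matched promoters as a whole were split in the same way. Of the 32851 promoter windows, 9966 were matched to measured positions by CpG spacing, and their order along the chromosomes agreed for 9944 of 9947 neighbouring pairs. A match needed at least 8 measured CpGs in the 300 bases, so promoters with fewer measured CpGs are not represented. CpGs in CCGG in these promoters had a median methylation of 52.9% in *Rex1*-high cells (24063 CpGs) and 54.5% in *Rex1*-low cells (25658 CpGs). CpGs in TCGA had medians of 52.8% and 55.6%, and the remaining CpGs had a median of 0% in both. At CCGG, the 2 lines of a CpG were at least 50 points apart at 59.4% of positions with 2 lines in *Rex1*-high cells, against 0.152% for CpGs outside the sites. Of the CpGs outside the sites 97.3% were under 10%, where lines can hardly be so far apart, so that contrast largely follows the level. Over all measured positions with 2 lines the share was 24.4%, and in the 4 windows it was 15 of 114. Fragment ends lie at these sites and are filled in during library preparation, and the part of that step in the values was not tested.

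**Figure D2:**
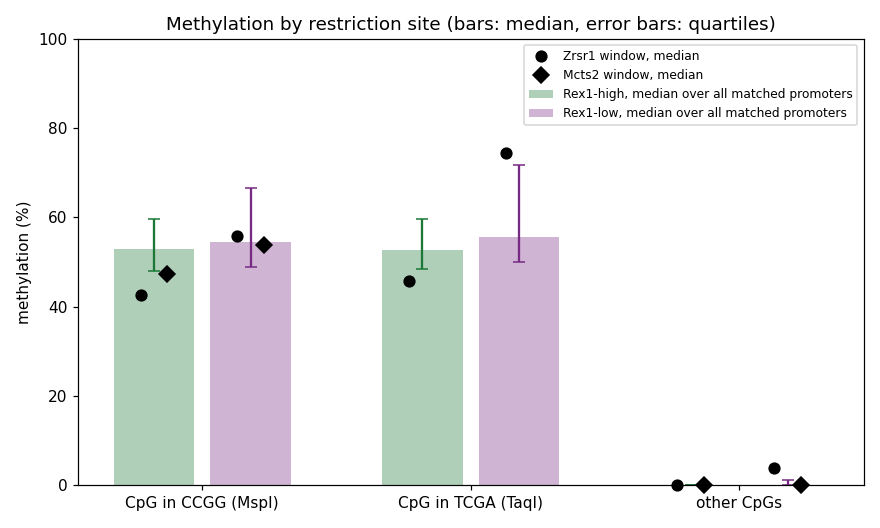
Median methylation in percent (vertical axis) of CpGs in CCGG, in TCGA and outside both, over all matched promoters (bars, with quartiles as error bars) in the Rex1-high and Rex1-low libraries. Black circles and diamonds are the medians of the Zrsr1 and Mcts2 windows, which lie between 42.7% and 74.4% at the sites and between 0% and 3.92% outside them.

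At the *Zrsr1* promoter, the CCGG 6 bp before the start had lines of 14 of 31 and 15 of 37 calls methylated in *Rex1*-high cells and of 31 of 50 and 19 of 23 in *Rex1*-low cells. The 5 CpGs outside CCGG, which flank it from 53 bp before to 31 bp after the start, had 4 of 203 calls methylated in *Rex1*-high cells (1.97%, 0.769% to 4.96%) and 8 of 197 in *Rex1*-low cells (4.06%, 2.07% to 7.81%). The change of their mean by 0.990 points was not called (adjusted p = 0.862 by the exact stratified test over 9189 matched promoters), and the intervals of both libraries overlapped. Of those promoters, 2.25% were called higher and 0.0218% lower in *Rex1*-low cells on CpGs outside the sites. The 4 CCGG CpGs of the *Zrsr1* promoter averaged 44.7% and 46.0% and were not called either (adjusted p = 0.0941 by the exact stratified test over 5123 promoters), where 13.1% of promoters were called higher and 0.449% lower. This mean gives equal weight to the CCGG at 22871841, with 2 of 5 and 0 of 6 calls methylated. Pooled over the 4 CpGs, 70 of 144 calls were methylated in *Rex1*-high cells (48.6%, 40.6% to 56.7%). In *Rex1*-low cells 115 of 199 were (57.8%, 50.8% to 64.4%).

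Around the internal *Commd1* start, which lies within the *Zrsr1* window on the opposite strand, 13 CpGs outside the sites had 8 of 488 calls methylated in *Rex1*-high cells (1.64%, 0.833% to 3.20%) and 39 of 746 in *Rex1*-low cells (5.23%, 3.85% to 7.07%). Their mean differed by 4.05 points (adjusted p = 0.00997 by the same exact test), which is under the 10 points that a call requires. The median over the promoters tested was a difference of 0.158 points. The TCGA 74 bp before this start had 40 of 83 calls methylated in *Rex1*-high cells and 70 of 104 in *Rex1*-low cells.

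The *Mcts2* promoter was the least methylated of these stretches outside CCGG. None of 178 calls at 10 such CpGs was methylated in *Rex1*-high cells, with an upper Wilson limit of 2.11%, and 4 of 323 calls at 9 CpGs were methylated in *Rex1*-low cells (1.24%, 0.483% to 3.14%). The 8 CpGs of both libraries differed by 0.758 points (adjusted p = 1 by the exact stratified test). The CCGG at the start itself had 3 of 9 calls methylated in *Rex1*-high cells, whereas its *Rex1*-low lines held 32 of 32 and 0 of 9 methylated calls.

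The host promoters were also low outside the sites. At the upstream *Commd1* promoter, CpGs outside the sites had 5 of 646 calls methylated in *Rex1*-high cells (0.774%) and 7 of 786 in *Rex1*-low cells (0.891%), while its CCGG CpGs averaged 54.7% and 59.0%. At the *H13* promoter, CpGs outside the sites had 2 of 156 calls (1.28%) and 2 of 92 calls (2.17%) methylated. Outside the sites, the promoters of *Zrsr1* and *Mcts2* and the upstream promoters of their hosts were thus under 5% in both libraries, whereas the internal *Commd1* start stood at 5.23% in *Rex1*-low cells.

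**Figure D3:**
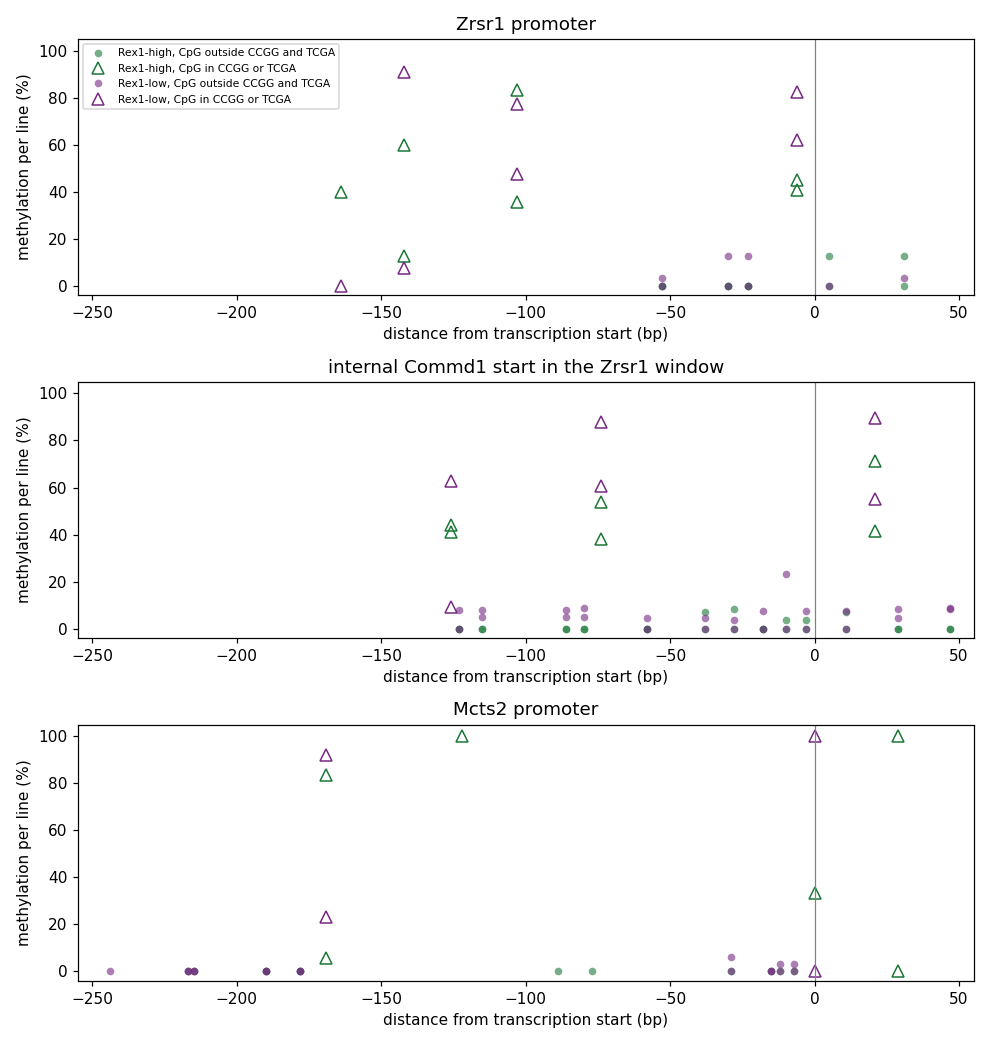
Methylation in percent per line (vertical axis) against the distance in bp from the transcription start (grey line) for the 3 stretches printed above, with the Rex1-high library in green and the Rex1-low library in purple. Open triangles are CpGs in CCGG or TCGA and filled circles are CpGs outside both; circles stay under 25%, and triangles range from 0% to 100%.

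*Nap1l5* was measured at 16 CpGs over 243 bp, from 58856628 to 58856871. Of these, 4 were at 25% or more in both libraries. At 58856628 the *Rex1*-high lines held 14 of 14 and 1 of 19 methylated calls and the *Rex1*-low lines 14 of 14 and 1 of 8. At 58856871 the lines held 17 of 18 and 4 of 20 calls, then 8 of 8 and 1 of 10. Both CpGs had 1 line near full methylation and 1 line at 20% or less in each library. The CpGs at 58856718 and 58856762 were not split in this way. At 58856718 the lines held 14 of 24 and 19 of 34 calls, then 14 of 27 and 27 of 32. At 58856762 they held 7 of 27 and 18 of 35, then 16 of 21 and 32 of 53. The remaining 12 CpGs averaged 2.80% in *Rex1*-high cells, with a highest value of 7.63%, and 11.99% in *Rex1*-low cells, with a highest value of 17.0%. All 12 were higher in *Rex1*-low cells. Between 58856824 and 58856859, 6 of the *Rex1*-low lines held 2 methylated of 8 calls each, over a span of 35 bp that the same reads can cover.

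At *Inpp5f*, 13 CpGs were shared over 298 bp, from 135831562 to 135831860. Of these, 4 were at 25% or more in both libraries, at means of 65.9% and 87.0%. The 9 others averaged 1.07% and 3.44% and none exceeded 6.33%. Among them, the CpGs from 135831747 to 135831814 rested on only 6 or 7 calls each in *Rex1*-high cells. Of the 4 higher CpGs, the one at 135831860, at 100% in both libraries, had 5 calls in *Rex1*-high and 9 in *Rex1*-low cells. At 135831732 the *Rex1*-high lines held 2 of 28 and 31 of 37 methylated calls and the *Rex1*-low lines 18 of 31 and 39 of 42. The nearby CpG at 135831718 held 0 of 32 and 1 of 35 calls, then 2 of 53 and 4 of 61. CpGs a few bases apart thus had very different levels in each library.

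Past the sequenced stretch of *Mcts2*, downstream of its start, 3 CpGs were under 20% in *Rex1*-high cells and at 34.3% or more in *Rex1*-low cells. The CpG at 152513119 had 10 of 53 calls methylated in *Rex1*-high cells and 7 of 14 in *Rex1*-low cells (adjusted p = 0.149 by Fisher's exact test). The CpG at 152513153 had 9 of 54 and 6 of 14 calls methylated (adjusted p = 0.228 by the exact test). The CpG at 152513272 had 7 of 54 and 14 of 39 (adjusted p = 0.0761 by the exact test). None passed the test. At 152513119 and 152513153, another *Rex1*-low line with 3 of 4 calls methylated fell under the minimum. With lines summed, these CpGs had 10 of 18 and 9 of 18 calls methylated in *Rex1*-low cells. They did not pass in that setting either (adjusted p = 0.0502 and 0.0740 by Fisher's exact test). The CpG at 152513248 was unmethylated in both libraries. The first pair, the CpG at 152513248 and the lines given above for single CpGs of *Nap1l5* and *Inpp5f* were singled out after their values were seen.

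The change from *Rex1*-high to *Rex1*-low was then tested over all shared CpGs of each window. The mean was higher in *Rex1*-low cells by 9.52 points at *Nap1l5* (SD over 16 CpGs 7.003), 4.90 points at *Zrsr1* (13.5 over 68), 6.72 points at *Mcts2* (10.97 over 28) and 8.15 points at *Inpp5f* (12.03 over 13). The exact stratified test, adjusted over 162598 tiles and windows, gave p of 5.04e-07, 6.25e-09, 2.55e-06 and 3.01e-08. None of the 4 windows was called, because a call also required a change of 10 points. Of all tiles and windows, 76.8% were called higher in *Rex1*-low cells and 0.0418% lower. *Nap1l5* lay just under this limit and passed it with calls pooled over CpGs (12.3 points), but its change was 5.34 points when 10 calls per line were required. *Inpp5f* was higher by 13.5 points and was called at 10 calls per line. Its change was 3.58 points at 1 call per line and 6.17 points with the lines of a CpG summed first. It was not called in either of these settings. At *Zrsr1* the change was 2.68 points at 1 call per line and 3.63 points with the lines of a CpG summed first. At 22872264, 22872534 and 22873670, a *Rex1*-high line of 4 of 4 calls methylated fell under the minimum of 5. These CpGs rose by 51.5, 42.7 and 55.3 points in the main setting. With lines summed they rose by 8.89, 17.2 and 1.38 points.

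The changes were not shared evenly by the CpGs of a window. Over all shared CpGs of the genome, 66.1% were higher in *Rex1*-low cells and the median change was 9.09 points, and over the 125 CpGs of the windows these values were 63.2% and 2.78 points. At *Nap1l5*, 15 of 16 CpGs were higher in *Rex1*-low cells and 1 was lower, and the median change was 9.93 points. At *Zrsr1*, 42 of 68 CpGs were higher and 16 lower, with a median of 2.07 points. At *Mcts2*, 13 of 28 were higher and 3 lower, with a median of 0. At *Inpp5f*, 9 of 13 were higher and none was lower, with a median of 3.00 points. With only CpGs outside CCGG and TCGA in the sequenced stretches, the change was 3.20 points at *Zrsr1* (adjusted p = 0.000307 by the exact stratified test) and 0.758 points at *Mcts2* (adjusted p = 0.591).

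Of the 125 shared CpGs, 7 (5.60%) were called by Fisher's exact test over all shared CpGs, all of them higher in *Rex1*-low cells. Over the genome, 12.5% of CpGs were called higher and 0.239% lower. At an unadjusted p under 0.05, 17 of the 125 (13.6%) passed, all of them higher, against 25.1% of all shared CpGs higher and 0.789% lower. Each of the 7 already stood at 36.6% or more in *Rex1*-high cells. *Nap1l5* held 1, at 58856762, with 25 of 62 calls methylated against 48 of 74 (adjusted p = 0.0464, exact test). *Zrsr1* held 2, at 22871999, the CCGG before its start, with 29 of 68 against 50 of 73 (0.0260), and at 22872174, with 44 of 83 against 82 of 110 (0.0255). *Mcts2* held 1, at 152513297, with 32 of 86 against 31 of 47 (0.0233). At *Inpp5f*, 3 were called, at 135831562, 135831670 and 135831732. The CpG at 135831562 had 34 of 43 against 45 of 45 calls methylated (0.0149), and its other *Rex1*-low line, with 0 of 4 calls methylated, fell under the minimum. With the lines of a CpG summed first, it was at 91.8% in *Rex1*-low cells and was not called (0.394). The *Nap1l5* CpG at 58856762 was not called in that setting either (0.0521), and 5 of 135 CpGs were.

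Among CpGs with at least 20 calls in each library, the largest positive difference at *Mcts2* was the one at 152513272, by 25.3 points, and at the other loci it was a called CpG, at 58856762 by 29.6 points, at 22871999 by 29.5 points and at 135831562 by 34.6 points. The largest negative difference was -6.44 points at *Zrsr1*, at the CCGG at 22872992 (42.5% to 36.03%, adjusted p = 1 by Fisher's exact test; with its lines summed, 42.5% to 47.4%, so that the direction turned), and -5.11 points at *Mcts2*, at 152512590 (59.8% to 54.7%, adjusted p = 0.600). No such CpG was lower at *Nap1l5* or *Inpp5f*. The widest single difference at *Zrsr1*, of 55.3 points at 22873670, rested on a *Rex1*-high line of 0 of 6 calls, since the other line of 4 of 4 was under the minimum.

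The windows were then set beside CpG-dense tiles. Over the 32094 tiles of 2500 bp with at least 10 shared CpGs, the median change was 8.85 points (quartiles 1.92 and 25.03), and 48.3% of these tiles were called higher. The 4 windows ranked between the 41.3 and the 51.0 percentile of that distribution. In the 5224 of these tiles whose *Rex1*-high mean lay in the range of the windows, 14.8% to 21.0%, the median change was 3.16 points (quartiles 1.01 and 5.74), and 7.83% were called higher. The changes of 3 windows were above the upper quartile of these tiles, and that of *Zrsr1* was below it. These quartiles are of means over CpGs. With calls pooled over CpGs instead, the changes were 12.3 points at *Nap1l5*, 5.22 at *Zrsr1*, 3.27 at *Mcts2* and 4.95 at *Inpp5f*. Of these, only that of *Nap1l5* exceeded 5.74 points, and no quartiles of tiles were computed on pooled calls.

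By the median CpG, the flanks were more methylated than the window at *Nap1l5*, *Mcts2* and *Inpp5f*. Within 20 kb on either side, the median CpG at *Nap1l5* was at 71.4% in *Rex1*-high cells and 100% in *Rex1*-low cells (22 CpGs), and at *Inpp5f* at 67.9% and 90.8% (22 CpGs). The flanks of *Mcts2*, inside and around *H13*, had medians of 31.5% and 50% (132 CpGs). Those of *Zrsr1* had medians of 1.52% and 2.08% (93 CpGs), and 61.3% of them were under 10% in *Rex1*-high cells. By the mean over CpGs, the *Zrsr1* flanks were higher than the window, at 22.5% against 16.2% in *Rex1*-high cells and at 28.6% against 21.1% in *Rex1*-low cells.

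The odds of methylation rose less in the windows than in the flanks at 3 loci. The log2 odds ratio of *Rex1*-low against *Rex1*-high, stratified by CpG, was 1.38 in the *Nap1l5* window and 3.02 in its flanks, a difference of -1.64 (95% interval -2.56 to -0.72). At *Mcts2* it was 1.15 and 1.84, a difference of -0.69 (-1.20 to -0.19), and at *Zrsr1* 0.76 and 1.11, a difference of -0.35 (-0.68 to -0.02). At *Inpp5f* it was 1.85 and 2.65, and the interval of the difference included 0 (-0.80, -1.67 to 0.07). These 4 intervals were not adjusted for their number, and that of *Zrsr1* ended at -0.02 without adjustment. They cover counting error only. CpGs in CCGG and TCGA were included, and windows and flanks were not compared outside these sites. With flanks of 50 kb the *Inpp5f* difference was 0.20, and at 10 calls per line the *Zrsr1* difference no longer excluded 0.

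**Figure D4:**
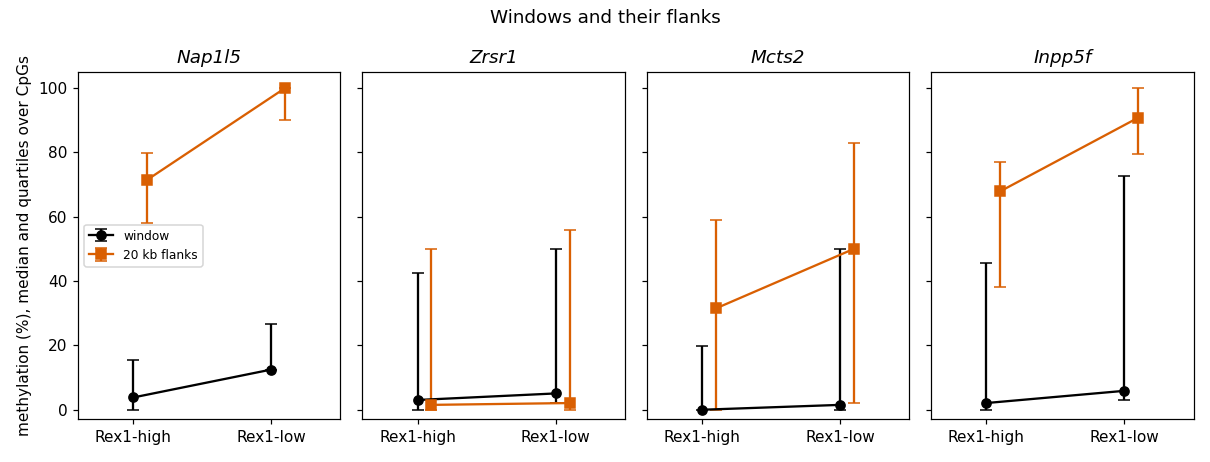
Methylation in percent (vertical axis) in the Rex1-high and Rex1-low libraries for each window (black circles) and its flanks of 20 kb on both sides (orange squares), as the median over shared CpGs with quartiles as error bars. The window medians stay at 12.5% or less, whereas the flanks of Nap1l5 and Inpp5f rise from 71.4% to 100% and from 67.9% to 90.8%.

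The 3 tiles of at least 10 CpGs whose pair of levels was nearest to the mean of the 4 windows (16.8% and 24.1%) were on chromosome 5 from 111847500 to 111849999, on chromosome 10 from 14265000 to 14267499 and on chromosome 2 from 48670000 to 48672499. Their levels were 16.6% in *Rex1*-high cells, and 24.2%, 24.1% and 24.1% in *Rex1*-low cells.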

How the data were processed

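RRBS of sorted cells gave 1 file per library. The authors processed the reads with Bismark (version 0.7 in the submitters' processing notes) and Galaxy on mm9, and trimming and the handling of strands are not given in the sources used here. The deposited values are, per line, methylated and all calls, with a score of about 1000 times their ratio, which was not used. A position has 1 or 2 lines with no strand named, and positions are given here as the deposited start values.

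Lines of at least 5 calls were kept, after the paper's minimum per CpG. The fraction of a CpG was the mean of its kept lines, and calls were summed for tests. Windows and tiles of 2500 bp with at least 3 shared CpGs were compared by an exact conditional test of a common odds ratio stratified by CpG, two-sided, with Benjamini-Hochberg adjustment, and called at an adjusted p under 0.05 and 10 points. Fisher's exact test was applied to single CpGs and, as an alternative, to summed calls. Flanks were compared by Mantel-Haenszel odds ratios; an adjustment over the 4 loci alone had been planned and was left out. Single CpGs named are those called and, per locus, the largest rise and fall among CpGs with 20 calls per library. Promoter matches needed at least 8 CpGs, no measured position off a CpG and no rival match of more than 50% of its score; they were added after seeing the data. The members and lists were chosen with earlier results of these data known.

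The stratified test was tested on simulated data at the real depths of 20000 tiles. With no difference simulated, 0 tiles were called. Of 200 tiles changed by 30 points, 97 were called, along with 3 unchanged tiles. Calls were drawn independently for each CpG, so calls that share a read were not simulated. A kept position had a median of 23 (*Rex1*-high) and 22 (*Rex1*-low) calls. The analysis used SciPy 1.17.1 and numba 0.67.0 under Python 3.11.15, with pandas 2.3.3, NumPy 2.4.6 and, for plots, matplotlib 3.10.9.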

Additional observations from a re-analysis of the deposited data

Results flagged for a closer look

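Methylated calls also appeared in mitochondrial DNA, which no comparison above used. Of calls at mitochondrial CpGs, 23.7% were methylated in *Rex1*-high cells (37403 of 157826 calls, 95% Wilson interval 23.5% to 23.9%) and 25.1% in *Rex1*-low cells (25839 of 103016, 24.8% to 25.3%), which is above the limit that a count of 0 would allow. The median mitochondrial CpG was at 0.973% and 0.755%. The CpGs at 25% or more, 22 of 68 and 16 of 52, held 97.8% and 98.0% of these methylated calls. No sequence was matched to the mitochondrial positions.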

How the results depend on the processing

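The changes, the comparisons with flanks and the counts of calls were recomputed under other settings, 60 values in all, of which 2 were added after seeing the data, and 52 kept their direction and their side of the threshold. A window change that stayed positive and uncalled counted as kept, whatever its p-value. The 52 therefore include the *Mcts2* change outside the sites (adjusted p = 0.591 by the exact stratified test). They also include changes that did not pass Fisher's exact test. With 10 calls per line the *Inpp5f* change became 13.5 points and was called, the *Inpp5f* difference from its flanks became -1.06 and excluded 0, and the *Zrsr1* difference became -0.34 and included it. The *Nap1l5* change was called with calls pooled over CpGs (12.3 points) and with CpGs thinned to equal calls (10.3 points). The *Mcts2* change was 0 as a median over CpGs. With flanks of 50 kb the *Inpp5f* difference reversed to 0.20. With 10 CpGs per tile, 15514 of 32098 tiles and windows were called higher in place of 124918 of 162598, and fewer tiles were tested. The cause of the other shifts was not tested. Over all alternatives, the change ranged from 5.34 to 12.3 points at *Nap1l5*, 2.07 to 5.27 at *Zrsr1*, 0 to 7.68 at *Mcts2* and 3.00 to 13.5 at *Inpp5f*, and 5 to 9 CpGs were called in the 4 windows. By Fisher's exact test on summed calls, the changes at *Mcts2* (adjusted p = 0.106) and *Inpp5f* (0.0898) did not pass. Windows shortened or widened by 500 bp at each end gave the same changes, because they held the same shared CpGs, so they tested nothing further. No paired analysis was possible because each state has 1 library. The number of shared CpGs, 16 at *Nap1l5* and 13 at *Inpp5f*, and the calls per CpG, with a median of 17 at *Mcts2* in *Rex1*-high cells, limit what these windows can show.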
